A study of Mus musculus with 6 samples.

Results

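The amino acid transporter families examined here are the genes of the solute carrier groups Slc1a, Slc3a, Slc6a, Slc7a, Slc36a, Slc38a and Slc43a, taken by gene symbol alone. Of 55367 symbols in the count files, 61 met this rule: 19 in Slc6a, 15 in Slc7a, 11 in Slc38a, 7 in Slc1a, 4 in Slc36a, 3 in Slc43a and 2 in Slc3a. RNA-seq of acinar cells, which make the digestive enzymes of the pancreas, gave 6 mouse libraries. All 6 belong to 1 group: untreated mice of genotype Pdx1-Cre; Klf5-mCherry-CreERT2, in which the Pdx1 promoter drives Cre in the pancreatic lineage and Klf5 carries a tamoxifen-inducible Cre with a red reporter. Each library was made from 300 GFP-positive sorted cells by Smart-seq2, a full-length cDNA method, and the genotype label names no GFP reporter. The molecule label reads genomic DNA while the protocol starts from RNA, and what share of the counts over introns and receptor genes came from DNA was not tested. No age is given, and nothing says that each library had its own animal, so p-values and SDs measure the spread between these libraries, which may be technical. The deposited names hold an unexplained number that differs between replicates 4 to 6 (set B) and replicates 1 to 3 (set A).

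Amino acids cross membranes through carriers that differ in substrate, in the ion they move with and in whether they take up or exchange. Slc38 carriers move small neutral amino acids with sodium, Slc7 proteins are either cationic amino acid carriers or light chains that need an Slc3 heavy chain to reach the membrane, Slc1 holds glutamate carriers and neutral exchangers, and Slc6 holds carriers of neurotransmitters, taurine, creatine and neutral amino acids. Slc36 and Slc43 hold proton-coupled and facilitative carriers. Acinar cells are known for very high rates of protein synthesis and for a high uptake of amino acids.

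Total counts were 4670819 to 7072270 per library, of which ribosomal RNA took 59.9% to 60.9% in set B and 38.1% to 46.8% in set A. Background was read from 1711 olfactory and vomeronasal receptor genes, which acinar cells are not known to use: it was 27.9 counts per Mb of gene span in replicate 1, 28.7 in replicate 2, 40.5 in replicate 3, 55.1 in replicate 4, 341 in replicate 5 and 116 in replicate 6. Replicate 5 stands apart with the highest background and the lowest total, and values without it are given where they move a printed mean, share or difference between sets by over 1.5 times or change a count. All 10 acinar markers were above background in every library. Their summed TPM was 116011 to 181365 in set B and 296251 to 341466 in set A. TPM is counts per kb of exon, scaled over all genes, ribosomal RNA included, to the same sum in every library. Of other cell types, 4 of 7 duct markers and 1 of 10 endocrine markers were above background in every library, with sums of up to 173 TPM for duct in replicate 4. Endocrine markers summed to 1003 TPM in replicate 4, 38.7 in replicate 5 and 2224.5 in replicate 6, and to 9.09 to 40.5 TPM in set A. Iapp, Neurod1 and the neuronal Tubb3 were at 0 in every library. Their overlap with other listed genes is not given here, so no absence is read from these zeros. Of 6 endothelial, 7 fibroblast, 8 immune and 5 Schwann cell and neuron markers 0 were above background in every library, and their sums stayed at 14.1 TPM or lower. Proliferation markers, of which 1 of 5 passed, summed to 6.85 to 8.70 TPM in set B and 1.42 to 2.22 TPM in set A. Fewer cells of a type and less RNA per cell cannot be told apart in such pooled samples.

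A carrier was taken as above background in a library when its counts were over 3 times the background expected over its span and also more than 3. This held in all 6 libraries for 10 of the 61 carriers (16.4%), against 11.1% of 21963 protein-coding genes. The 10 carriers were Slc38a5, Slc38a2, Slc3a2, Slc38a3, Slc38a10, Slc7a8, Slc1a5, Slc1a4, Slc38a7 and Slc7a3. Among genes that overlap no other listed gene, 9 of 38 carriers passed (23.7%), against 12.6% of protein-coding genes. The 10 made up 5 of 11 Slc38a, 2 of 15 Slc7a, 2 of 7 Slc1a and 1 of 2 Slc3a genes, and 0 of 19 Slc6a, 0 of 4 Slc36a and 0 of 3 Slc43a genes. A further 7 carriers passed in 5 libraries, 17 in 1 to 4 libraries and 27 in none. For all 10 carriers the lowest ratio was that of replicate 5. Without replicate 5, 17 carriers (27.9%) passed in every library, against 28.7% of protein-coding genes. The median over the carriers of the lowest ratio was 0.458, beside 0.350 over protein-coding genes.

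**Figure D1:**
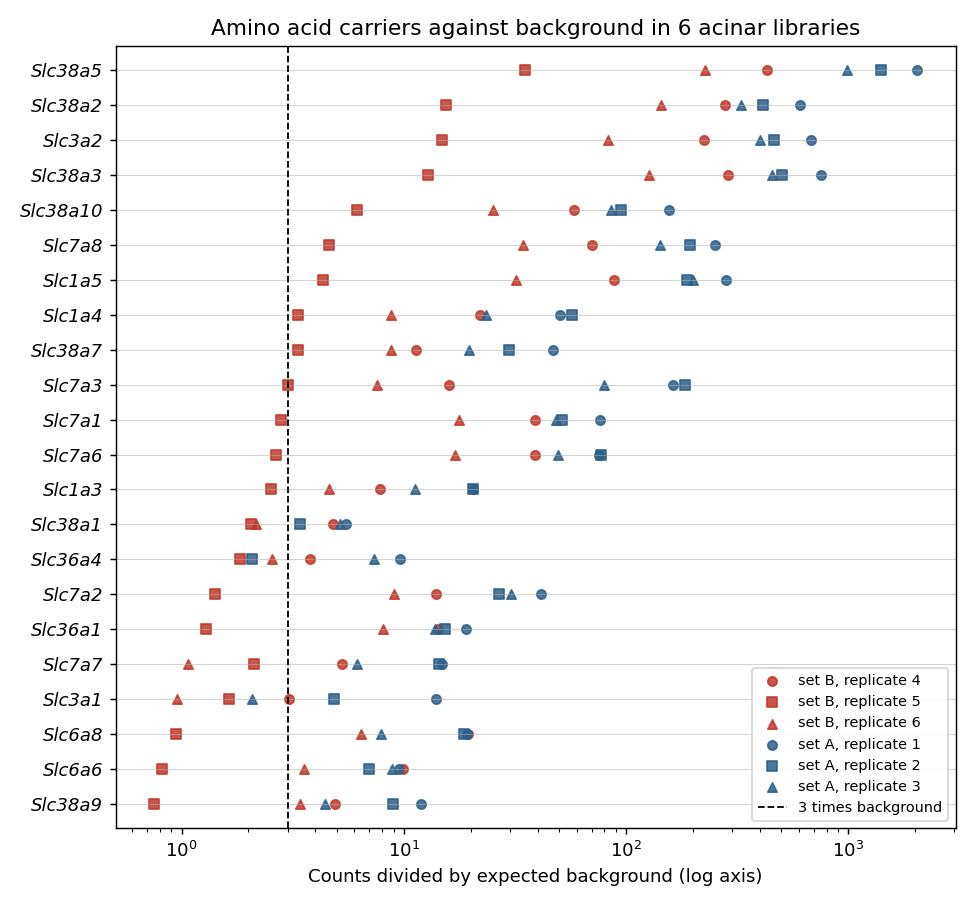
Counts divided by the expected background (log axis) for the 22 carriers over 3 times background in at least 3 libraries, with a point for each library, set B in red and set A in blue, and a dashed line at 3. The lowest ratios of Slc38a5, Slc38a2, Slc3a2 and Slc38a3 are 35.0, 15.4, 14.9 and 12.9, all in replicate 5.

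Near the threshold, the carriers just inside were Slc1a4 with a lowest ratio of 3.36, Slc38a7 with 3.33 and Slc7a3 with 3.01. Just outside were Slc7a1 with 2.79, Slc7a6 with 2.65 and Slc1a3 with 2.52. In replicate 5 the exact Poisson 95% interval of the ratio was 1.21 to 6.21 for Slc7a3 and 2.17 to 3.53 for Slc7a1, so counting error alone spans the threshold for both. Such intervals cover counting error only, since amplified reads are not independent molecules. With olfactory receptor genes alone as background, 9 carriers passed in all libraries, and Slc7a3 was not among them.

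Sequence before the start site is shown for the highest carrier, Slc38a5, for 2 further carriers above background in which a motif was found, and for Slc7a11, whose counts are taken up below. Windows are the 250 bases before the RefSeq start in build GRCm38.p6, each written on its gene's strand, and capitals mark matches on either strand. The motifs searched were TGATGNAA, the composite site bound by ATF4 with C/EBP proteins, TTTCCCA, bound by RBPJ proteins, AAGGTCA, bound by NR5A2, and the E-box CACGTG. No 2 matches overlap in these windows. The Slc38a5 window is chrX:8271131-8271380 (plus strand) and all but its first 2 bases lie within the deposited span, whose start is 248 bp upstream of the RefSeq start. The others are chr11:20332714-20332963 for Slc1a4, chr8:95853492-95853741 for Slc38a7 and chr3:50443614-50443863 for Slc7a11, all on the minus strand.
Slc38a5: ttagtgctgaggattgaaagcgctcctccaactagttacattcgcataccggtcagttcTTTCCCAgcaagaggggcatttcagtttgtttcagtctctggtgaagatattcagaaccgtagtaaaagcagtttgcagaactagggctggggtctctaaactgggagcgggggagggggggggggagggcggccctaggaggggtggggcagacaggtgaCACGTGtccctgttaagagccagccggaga
Slc1a4: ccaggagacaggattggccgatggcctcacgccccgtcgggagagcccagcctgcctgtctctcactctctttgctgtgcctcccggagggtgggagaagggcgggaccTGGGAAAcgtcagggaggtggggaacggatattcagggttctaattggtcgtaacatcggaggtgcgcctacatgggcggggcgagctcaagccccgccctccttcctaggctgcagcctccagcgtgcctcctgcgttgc
Slc38a7: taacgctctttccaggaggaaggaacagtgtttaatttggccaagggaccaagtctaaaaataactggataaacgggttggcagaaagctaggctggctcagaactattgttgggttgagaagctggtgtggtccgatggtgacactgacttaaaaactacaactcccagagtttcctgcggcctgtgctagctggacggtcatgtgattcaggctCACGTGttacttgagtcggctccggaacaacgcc
Slc7a11: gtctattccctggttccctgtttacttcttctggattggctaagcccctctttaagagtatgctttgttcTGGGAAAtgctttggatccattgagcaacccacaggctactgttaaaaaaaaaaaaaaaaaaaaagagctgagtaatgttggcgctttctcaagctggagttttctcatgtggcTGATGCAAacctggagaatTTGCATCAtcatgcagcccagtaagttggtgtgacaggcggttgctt

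In these windows Slc38a5 held TTTCCCA at 191 to 185 bases and CACGTG at 30 to 25 bases before the start. Slc7a11 held TGATGNAA on opposite strands at 66 to 59 and at 47 to 40 bases before it, and TTTCCCA at 180 to 174 bases. RefSeq windows were at hand for 43 carriers, of which 3 held TGATGNAA (Slc7a11, Slc7a7 and Slc6a21), 6 held TTTCCCA, 2 held AAGGTCA and 9 held CACGTG. Over 16787 protein-coding genes with a window the shares were 3.46%, 7.98%, 4.15% and 7.82% in that order. Of the 7 carriers above background in all libraries that had a window, 0 held TGATGNAA or AAGGTCA. At shares of 3.46% and 4.15%, 7 windows are too few to read a lack of such sites from this. Sequence outside the windows was not searched. A match is a string of letters in these windows and not a measured site.

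System N carriers, which move glutamine, histidine and asparagine with sodium in exchange for protons, had the highest summed level of the roles compared, although Slc38a3 alone lay below Slc3a2 and Slc7a8 by mean TPM. Slc38a5 (chromosome X, 8271133 to 8280179, build mm10) had 517, 366, 363, 216, 108 and 239 counts in replicates 1 to 6. That is 52.0, 49.3, 43.2, 28.5, 22.5 and 31.3 TPM, with a mean of 37.8 ± 12.1 TPM (SD, n = 6). It ranked 223 among protein-coding genes by mean TPM, and expected background made up 0.305% of its counts. Slc38a3 (chromosome 9, 107650634 to 107669530), the other system N gene, had 396, 274, 349, 301, 83 and 280 counts, or 15.0 ± 3.84 TPM. It was even in 5 libraries, at 15.6 to 17.6 TPM, and lower in replicate 5 at 7.33 TPM. Together this pair held 37.6% ± 9.41 of the summed TPM of all 61 carriers. Slc38a5 exceeded Slc38a3 in 6 of 6 libraries, with a difference of -1.26 ± 0.36 in log2(TPM + 1) for Slc38a3 minus Slc38a5. Without scaling by length, on log2(CPM + 1), this difference was -0.09 ± 0.366 (exact p 0.594).

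System A carriers take up small neutral amino acids, and Slc38a2 is known to be induced when amino acids run short. Slc38a2 (chromosome 15, 96687392 to 96699730) had 209, 146, 165, 189, 65 and 207 counts, at 5.32 ± 1.20 TPM. Its levels were 3.43 TPM in replicate 5 and 4.98 to 6.87 TPM elsewhere, and its lowest ratio to background of 15.4 was the highest after Slc38a5. Slc38a1 had 11, 7, 15, 19, 50 and 18 counts over a span of 71.5 kb, of which background made up 36.3%, and it passed in 4 libraries, with 0.414 ± 0.467 TPM, or 0.226 ± 0.0919 TPM without replicate 5. Slc38a2 exceeded Slc38a1 by 2.19 ± 0.63 log2 units in 6 of 6 libraries. Slc38a4, the remaining system A gene, had 0.660 ± 0.995 TPM, or 0.267 ± 0.283 TPM without replicate 5, and expected background equalled 84.7% of its counts.

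Other Slc38 carriers were led by Slc38a10, whose substrate is less well defined, at 206, 129, 164, 152, 100 and 139 counts (chromosome 11, 120103960 to 120151346). By exon length its 6.79 ± 0.482 TPM was the steadiest level in the group, with a coefficient of variation of 0.0710, and ranged from 6.07 to 7.26 TPM. By gene span it was 1.37 ± 0.295 TPM, a larger spread for its mean than that of Slc36a1 at 0.262 ± 0.0447. Slc38a7, a lysosomal exporter of glutamine and asparagine, had 23, 15, 14, 11, 20 and 18 counts, at 1.26 ± 0.522 TPM. Its highest level, 2.25 TPM, was in replicate 5, the library with the highest background. Slc38a9, a lysosomal arginine sensor upstream of mTORC1, had 26, 20, 14, 21, 20 and 31 counts and passed in 5 libraries, with 0.751 times background in replicate 5. Slc38a6, Slc38a8 and Slc38a11 passed in 2, 0 and 0 libraries.

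Heavy chains carry the light chains of the heteromeric carriers to the plasma membrane. Slc3a2 (4F2hc, CD98; chromosome 19, 8706882 to 8723369) had 314, 220, 267, 204, 84 and 160 counts, at 16.8 ± 3.77 TPM. Slc3a1 (rBAT), the heavy chain known from kidney and gut cystine uptake, had 14, 5, 3, 6, 20 and 4 counts, at 1.30 ± 1.42 TPM, or 0.741 ± 0.397 TPM without replicate 5, with 42.1% of its counts expected as background. Slc3a2 was higher in all libraries, by 3.08 ± 0.949 log2 units. The smallest difference was in replicate 5, where Slc3a1 had its most counts.

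Among light chains that pair with Slc3a2, Slc7a8 (LAT2), an exchanger of neutral amino acids, was the highest. It had 421, 331, 344, 232, 94 and 239 counts (chromosome 14, 54722209 to 54781946), at 15.6 ± 4.27 TPM. Slc7a6 (y+LAT2), which exchanges cationic for neutral amino acids, had 63, 66, 60, 64, 27 and 59 counts at 3.61 ± 0.612 TPM and was over background in 5 libraries. Its close relative Slc7a7 (y+LAT1) had 20, 20, 12, 14, 35 and 6 counts at 1.81 ± 1.58 TPM (1.19 ± 0.479 without replicate 5) and passed in 4. Slc7a10 (Asc-1) had 2 counts in all. No level can be read for Slc7a5 (LAT1): it had 0 counts in every library, and all of its span lies inside that of Galnt2l, another listed gene. For a like overlap no absence is read from Slc6a9, Slc7a4 and Slc7a15, of whose exon bases 7.92%, 4.21% and 7.42% lie outside other listed genes. Slc3a2 over the summed TPM of its countable light chains, Slc7a5 left out, was 0.728 ± 0.139 by exon length and 1.74 ± 0.253 by gene span, so it lay below 1 or above 1 with the length used. The sum includes carriers near background. In replicate 5, where the ratio by exon length was lowest at 0.492, Slc7a11 gave 5.69 TPM and Slc7a7 4.92 TPM of a sum of 22.6 TPM.

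Slc7a11 (xCT), the cystine and glutamate exchanger that supplies cysteine for glutathione, had 40, 31, 37, 85, 170 and 76 counts. The background expected over its deposited span was 15.4, 15.8, 22.3, 30.3, 188 and 64.2 counts in the same order. Its ratio to background was 0.904 to 2.80, so it passed in 0 libraries, and background equalled 76.5% of its counts. The deposited span is 551089 bp long, while RefSeq gives 134152 bp for this gene, so most of the counted interval lies outside the RefSeq gene. Expected background grows with the span, so the ratio over the RefSeq gene alone may differ. That ratio was not computed, and no absence of Slc7a11 is read from the 0 libraries.

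Cationic carriers take up arginine, lysine and ornithine. Slc7a1 (CAT1), the widely used form, had 155, 107, 143, 156, 69 and 149 counts (chromosome 5, 148327410 to 148399904), at 3.29 ± 0.511 TPM, and Slc7a2 (CAT2) had 69, 46, 74, 46, 29 and 63 counts, at 1.73 ± 0.296 TPM. Slc7a1 exceeded Slc7a2 by 0.65 ± 0.19 log2 units in 6 of 6 libraries. Both were over 9 times background in the 5 libraries other than replicate 5. Slc7a3 (CAT3; chromosome X, 101079210 to 101086020), best known from brain, had 31, 36, 22, 6, 7 and 6 counts, at 1.34 ± 0.939 TPM. Its span is 6.81 kb, so few counts suffice there to stand above background. Slc7a14 was at 0.676 to 1.84 times background and passed in 0 libraries.

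Among Slc1 genes both neutral exchangers passed. Slc1a5 (ASCT2), which exchanges glutamine, serine, cysteine and other neutral amino acids, had 133, 91, 138, 82, 25 and 63 counts (chromosome 7, 16781340 to 16798274), at 5.94 ± 2.12 TPM. Slc1a4 (ASCT1), an exchanger of alanine, serine, cysteine and threonine, had 43, 50, 29, 37, 35 and 31 counts (chromosome 11, 20302180 to 20332713), at 2.92 ± 0.880 TPM. Slc1a5 exceeded Slc1a4 in 5 of 6 libraries, by 0.79 ± 0.72, with the opposite sign in replicate 5. Of the 5 glutamate carriers 0 passed in all libraries. The highest was Slc1a3 (GLAST, known from glia), with 44, 45, 35, 33, 66 and 41 counts and 1.67 ± 0.967 TPM, over background in 5 libraries. Expected background equalled 99.5% of the counts of Slc1a2, known as the main glial glutamate carrier, and exceeded the counts of Slc1a1, Slc1a6 and Slc1a7. Of the exon bases of Slc1a1 only 33.7% lie outside other listed genes, so no absence is read from it.

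No Slc6, Slc36 or Slc43 gene passed in all 6 libraries. In Slc6a the taurine carrier Slc6a6, with 20, 15, 27, 41, 21 and 31 counts, passed in 5 libraries, and the creatine carrier Slc6a8, with 5, 5, 3, 10, 3 and 7 counts, passed in 4. In replicate 3 Slc6a8 was at 7.92 times background and failed only by the count minimum. In replicate 5 Slc6a8 was at 0.940 times background. The serotonin carrier Slc6a4 passed in 1 library. The summed TPM of Slc6a genes was 4.79% ± 5.19 of that of all carriers, an SD above the mean, with its highest share of 15.0% in replicate 5 and a mean of 2.75% ± 1.55 without that library. Slc36a1 (PAT1), a proton-coupled carrier of lysosomes and gut, had 17, 14, 18, 25, 14 and 30 counts at 1.05 ± 0.349 TPM and passed in 5 libraries. Slc36a4 had 9, 2, 10, 7, 21 and 10 counts and passed in 3, at 0.512 ± 0.498 TPM (0.315 ± 0.138 without replicate 5), and Slc36a1 was the higher in 5 of 6 libraries, by 0.48 ± 0.39. Slc43a1 (LAT3), with 0.194 ± 0.153 TPM, and Slc43a2 (LAT4), with 0.252 ± 0.319 TPM (0.126 ± 0.0928 without replicate 5), are facilitative carriers of large neutral amino acids. Neither was the higher in more than 3 of 6 libraries, with a difference of -0.05 ± 0.29.

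Among the 10 carriers above background in all libraries, the order by mean TPM was Slc38a5, Slc3a2, Slc7a8, Slc38a3, Slc38a10, Slc1a5, Slc38a2, Slc1a4, Slc7a3 and Slc38a7. Slc38a5 stood above Slc3a2 by 1.10 ± 0.244 log2 units in 6 of 6 libraries. Slc3a2 and Slc7a8, and Slc7a8 and Slc38a3, did not differ beyond the spread, with differences of 0.11 ± 0.171 and 0.06 ± 0.231. The step from Slc38a3 to Slc38a10 was 0.99 ± 0.483 in 6 of 6, that from Slc38a2 to Slc1a4 was 0.69 ± 0.545 in 5 of 6, and that from Slc1a4 to Slc7a3 was 0.81 ± 0.590 in 6 of 6. Slc38a10, Slc1a5 and Slc38a2 lay within their spread, and so did Slc7a3 and Slc38a7. Counts cover introns, so exon lengths overstate genes with long introns, and by gene span the order after Slc38a5 was Slc38a3, Slc38a2, Slc3a2, Slc1a5, Slc7a8, Slc38a10, Slc7a3, Slc1a4 and Slc38a7. Slc7a8 thus moved from rank 3 to rank 6 and Slc38a2 from rank 7 to rank 3.

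**Figure D2:**
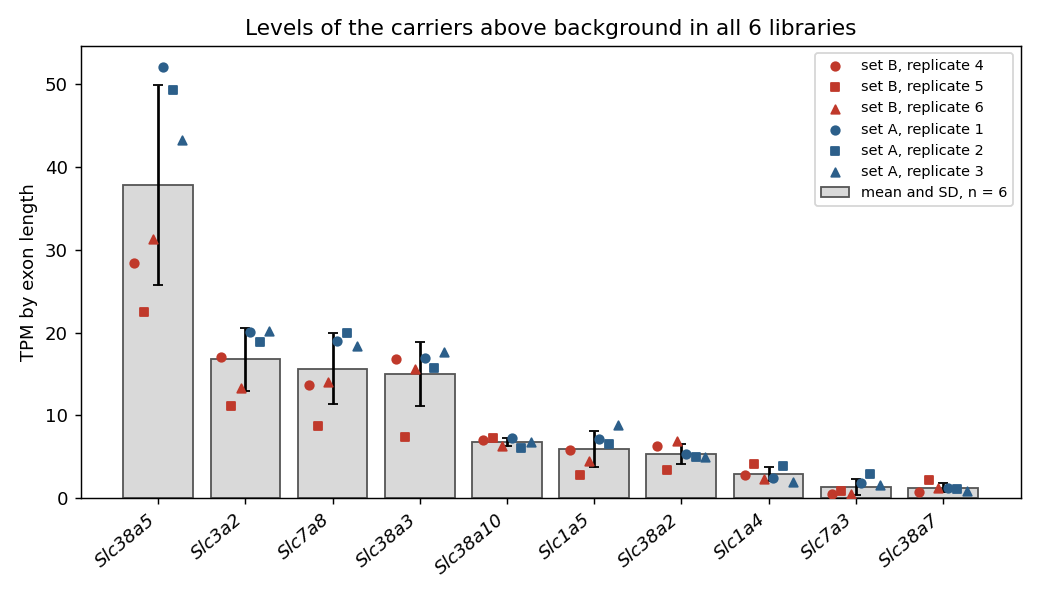
TPM by exon length of the 10 carriers above background in all 6 libraries, with bars for the mean and SD (n = 6) and a point for each library, set B in red and set A in blue. Slc38a5 has the highest mean, 37.8 TPM, and all 3 set B points of Slc38a5 lie below its set A points.

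Pairs of carriers of like role were compared inside each library, and the signs of the 6 differences were flipped in all 64 ways for an exact two-sided p. With 6 libraries no exact p can be under 0.031. The pairs Slc3a2 minus Slc3a1, Slc7a1 minus Slc7a2, Slc38a2 minus Slc38a1 and Slc38a3 minus Slc38a5 each reached it, with an adjusted exact p of 0.05 over the 8 pairs compared, which is not under the threshold of 0.05, and of 0.0547 over the 7 pairs left without the void pair named below. Slc1a5 minus Slc1a4 and Slc36a1 minus Slc36a4 gave 0.0625 by this exact test, or 0.0714 once adjusted, and Slc43a1 minus Slc43a2 an exact and adjusted exact p of 0.844. The eighth pair, Slc7a5 minus Slc7a8, is void because Slc7a5 could not be counted. By gene span lengths the adjusted exact p over all 8 pairs, the void one included, was 0.0417 for the first 4 pairs and for Slc1a5 minus Slc1a4, which then was 1.01 ± 0.537 and higher in 6 of 6.

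**Figure D3:**
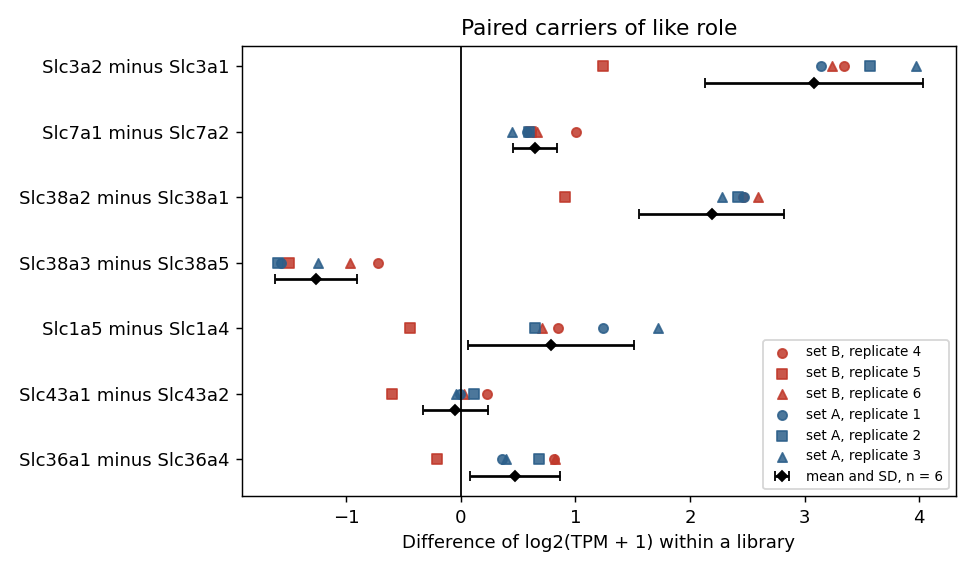
Within-library differences of log2(TPM + 1) for 7 pairs, with a point for each library, set B in red and set A in blue, and a black diamond and bar for the mean and SD (n = 6). All points of Slc3a2 minus Slc3a1, Slc7a1 minus Slc7a2 and Slc38a2 minus Slc38a1 lie above 0, and all points of Slc38a3 minus Slc38a5 below it.

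Set B and set A were compared because the library names part them, not because the labels give them different conditions. By edgeR's quasi-likelihood test 23 carriers passed the filter on low counts, and 0 had an adjusted p under 0.05, as did 1 of 8723 genes for higher in set B (0.0115%) and 0 (0%) for lower. At an unadjusted p under 0.05 there were 5 carriers higher and 5 lower in set B, together 43.5% of the 23, against 25.9% of all genes. DESeq2 called 2 carriers higher (Slc7a11 and Slc1a2) and 4 lower (Slc7a3, Slc38a5, Slc1a5 and Slc7a8), where it called 9.1% of genes higher and 2.6% lower. All 3 set B libraries were below all 3 set A libraries for 7 of 23 carriers (30.4%), against 17.2% of genes tested, and above them for 4 (17.4%), against 15.5%.

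Several carriers above background in all libraries had lower values in set B, though none passed the adjusted threshold. Values here are CPM after TMM scaling, which sets most genes level between libraries. Slc7a3 had 0.927, 1.16 and 0.883 in replicates 4, 5 and 6 of set B and 4.76, 6.84 and 3.77 in replicates 1, 2 and 3 of set A, a log2 difference of -2.35 (SE 0.413, edgeR adjusted p = 0.0874). Slc38a5 had 33.4, 17.9 and 35.2 in set B and 79.5, 69.6 and 62.2 in set A, a difference of -1.29 (SE 0.307, edgeR adjusted p = 0.0874). The sets did not overlap for either gene. Slc1a5 averaged 8.70 ± 4.29 in set B and 20.5 ± 3.17 in set A (SD, n = 3 each), with a difference of -1.23 (SE 0.384, edgeR adjusted p = 0.0969). Slc7a8 averaged 28.9 ± 11.5 in set B and 62.2 ± 2.97 in set A, a difference of -1.11 (SE 0.333). For its heavy chain Slc3a2 the means were 23.0 ± 8.82 in set B and 45.3 ± 3.25 in set A, a difference of -0.98 (SE 0.316). In each of these cases replicate 5 held the lowest set B value or, for Slc7a3, replicate 6. Slc38a3 differed by -0.77 (SE 0.404, edgeR adjusted p = 0.264), with no overlap between the sets, and by -0.41 without replicate 5. Slc7a2, Slc7a6, Slc38a10, Slc1a4, Slc38a2, Slc7a1 and Slc38a7 differed by -0.59, -0.49, -0.48, -0.39, -0.32, -0.26 and -0.20 (0.04 for Slc38a7 by library totals), and neither they nor Slc38a3 had an unadjusted p under 0.05. Of these only Slc38a3 and Slc38a10 had no overlap between the sets. Without replicate 5 the differences were -0.24 for Slc7a6, -0.0002 for Slc38a2, -0.01 for Slc7a1 and -0.45 for Slc38a7. The summed acinar markers were lower and the ribosomal RNA share higher in each set B library than in each set A library (values above), and their part in these differences was not tested. Because TPM was scaled with ribosomal RNA included, the marker sums and this share are not independent. The endocrine sums of replicates 4 and 6 were above those of all set A libraries, and their part was not tested either.

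Several carriers near background, Slc7a11 when read over its long deposited span, had higher values in set B, none past the adjusted threshold. Slc7a11 had 13.1, 28.2 and 11.2 in replicates 4, 5 and 6 of set B and 6.15, 5.89 and 6.34 in replicates 1, 2 and 3 of set A, a difference of 1.51 (SE 0.381, edgeR adjusted p = 0.0889). Slc1a2, Slc6a11 and Slc38a6 differed by 2.10, 1.98 and 1.81 and Slc38a1 by 1.29, with 99.5%, 91.6%, 64.1% and 36.3% of their counts equalled by background. Without replicate 5 the differences were 1.34 for Slc1a2, 0.64 for Slc6a11, 1.46 for Slc38a6 and 0.55 for Slc38a1. Background itself was 55.1, 341 and 116 counts per Mb in set B and 27.9, 28.7 and 40.5 in set A, and its part in these differences was not tested. Without replicate 5 edgeR called 6 carriers, Slc7a11 higher at a difference of 0.96 and Slc7a3, Slc38a5, Slc1a5, Slc7a8 and Slc3a2 lower. In that setting 4.04% of genes were called higher and 4.07% lower. Without replicate 4 edgeR called 8 carriers, with 3 higher and 5 lower, where 16.9% of genes were called higher and 5.72% lower. Without replicate 1, 2, 3 or 6 it called 0, with 1 to 6 higher and 4 to 6 lower at an unadjusted p under 0.05, where 16.2% to 23.5% of genes had one.

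**Figure D4:**
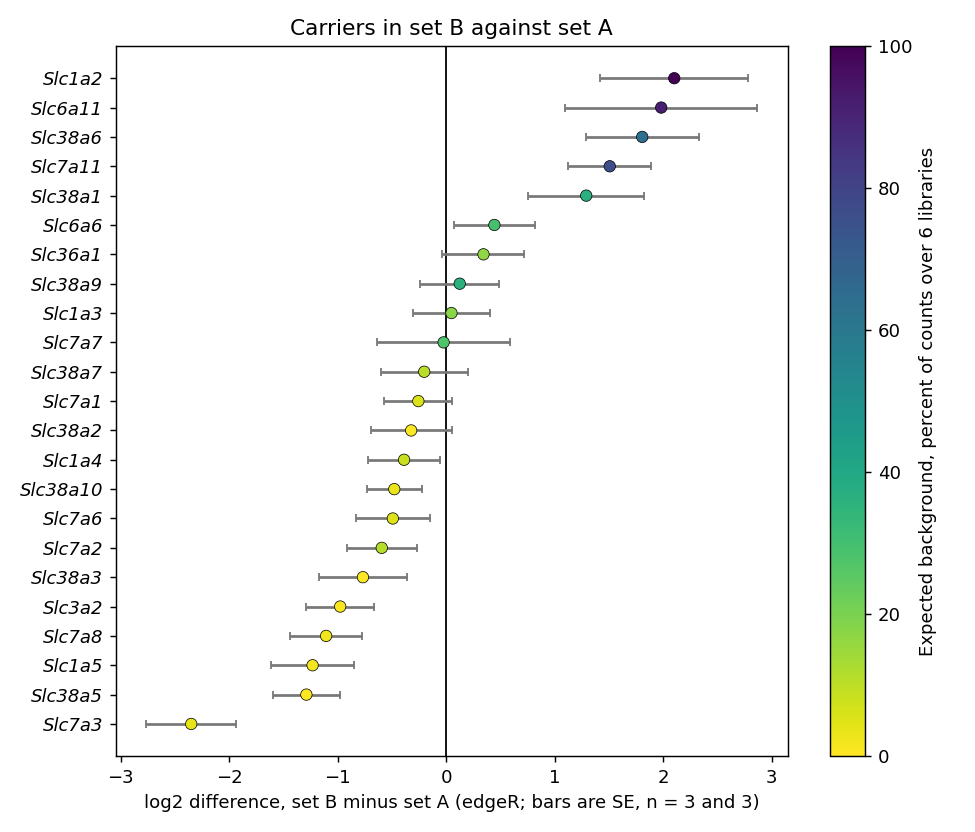
Log2 difference of set B minus set A from edgeR for the 23 carriers tested, with bars for the SE (n = 3 and 3), coloured by the share of each gene's counts that background equals. Slc7a3, at -2.35, is lowest, and the highest, Slc1a2 at 2.10 and Slc6a11 at 1.98, have over 90% of their counts equalled by background.

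Of 21 other amino acid carriers and partners, listed with earlier results of these data known, 1 was above background in all libraries: the mitochondrial glutamate carrier gene Slc25a22, at 0.707 ± 0.145 TPM. By mean TPM the highest were Slc25a13 at 2.48 ± 1.74, the lysosomal cystine exporter gene Ctns at 1.80 ± 0.548 and Slc25a12 at 1.72 ± 0.487, while Slc25a2 had 0 counts and lies inside another listed gene. For comparison with this list and the next, 11.1% of 21963 protein-coding genes passed the same rule. Of 20 genes of amino acid sensing by mTORC1 and GCN2, 6 were above background in all libraries. They were Atf4, the transcription factor of the amino acid response, at 16.6 ± 5.37 TPM, the Ragulator genes Lamtor2 (15.0 ± 3.25), Lamtor5 (11.5 ± 4.44), Lamtor4 (8.23 ± 1.43) and Lamtor3 (1.59 ± 0.265) and the Rag GTPase gene Rraga (3.41 ± 1.14 TPM). Sesn1, a leucine-sensor family member, had 13.0 ± 3.12 TPM and passed in 5 libraries.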

How the data were processed

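Raw counts per gene symbol were deposited by the authors as whole numbers, 1 file per library. Per the submitters' processing notes, Trim Galore 0.6.4, FastQC, STAR 2.7.9a, SAMtools and featureCounts were used with build mm10. The annotation release, strand setting and handling of reads with several alignments or genes are not given in the sources used here. The deposited Length column holds another quantity, the length of the counted interval, which is the whole gene span with introns. RNA came from 300 sorted cells per library, amplified for 12 cycles, per the labels' protocols.

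Expected background was each gene's span times the count density of 1711 receptor genes of smell and pheromone sensing (12.9 Mb, 7873 counts, over 50% of their exon bases outside other genes). Exon lengths came from GENCODE M21 for 55141 of 55367 symbols, and TPM was scaled over all genes, ribosomal RNA included. A count of 0 allows up to 3 counts, 0.424 to 0.642 CPM. The test between sets was edgeR 4.0.16's quasi-likelihood test (filterByExpr, TMM, Benjamini-Hochberg over all genes), with DESeq2 1.42.0 as alternative, in R 4.3.3. Python 3.11.15 with pandas 2.3.3 and scipy 1.17.1 served for the rest. Tests were tested on simulated data: of 198 genes changed 4-fold between the sets among 8353, edgeR recovered 82.8%. The simulation gave every gene the same spread, changed only genes with higher counts and held no library like replicate 5. That share therefore does not say how many 4-fold changes would be found in these libraries.

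Members, lists and pairs were chosen with earlier results of these data known, and the motifs after the values of these genes were seen. Named were all carriers above background in 6 libraries, both members of each pair, the 3 nearest the threshold on each side, the 3 largest set differences and carriers with 0 counts, and carriers named beyond these were chosen after their values were seen. Alternatives covered the ratio, count minimum, background genes, lengths, pseudocount (0.1 for 1 TPM), totals, filters, tools and leaving out each library.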

Additional observations from a re-analysis of the deposited data

Results flagged for a closer look

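A library far from the other 5 was found for 7 of 20 carriers examined by Dixon's gap test at its 95% critical value of 0.625, where chance flags about 1 group in 20. In all 7 it was replicate 5, the library with the highest background. Its level was the highest for Slc1a3 (3.602 TPM, others 1.09 to 1.59), Slc36a4 (1.496 TPM, others 0.0924 to 0.449), Slc38a1 (1.352 TPM, others 0.123 to 0.325), Slc38a7 (2.249 TPM, others 0.784 to 1.27), Slc3a1 (4.103 TPM, others 0.352 to 1.39) and Slc43a2 (0.8815 TPM, others 0.0266 to 0.234). For the system N carrier Slc38a3 it was the lowest, at 7.328 TPM, against 15.6 to 17.6 TPM in the others. Expected background was 341 counts per Mb in replicate 5 and 27.9 to 116 in the others, and its part in these gaps was not tested. The carriers share the same 6 libraries, so the 20 gap tests are not independent. The share of all genes flagged in this way was not computed, so the count of 7 is not read as particular to carriers.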

How the results depend on the processing

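The number of carriers above background in every library was 10, from 9 to 14 under 7 of the other 8 settings that kept all libraries, where 9.13% to 21.1% of protein-coding genes passed. It was 5 at over 5 times background, where 6.66% of protein-coding genes passed, and 10 to 17 when each library was left out, 17 being without replicate 5. Slc7a3 dropped out with at least 10 counts, with olfactory receptor genes alone, with background genes free of overlap and with the span free of other genes, the last added after the data were seen. Pair differences by gene span passed at an adjusted exact p of 0.0417: Slc3a2 minus Slc3a1 at 2.48, Slc7a5 minus Slc7a8 at -1.54 (void), Slc7a1 minus Slc7a2 at 0.34, Slc38a2 minus Slc38a1 at 2.53, Slc38a3 minus Slc38a5 at -1.02 and Slc1a5 minus Slc1a4 at 1.01. Slc43a1 minus Slc43a2 was 0.031 with background subtracted and -0.10 to 0.065 leaving out 1 library, 0.065 without replicate 5. Without length scaling Slc38a3 minus Slc38a5 was -0.09 and Slc7a1 minus Slc7a2 was 1.17. The cause was not tested. With 5 libraries no exact p can be under 0.0625. Carriers called between the sets were 0 in edgeR, 6 with DESeq2, 4 without a filter on low counts (2.65% of genes higher, 0.682% lower) and 0 to 8 leaving out 1 library; DESeq2 called 9.1% of genes higher and 2.6% lower. Library totals in place of TMM moved the median of all genes to 0.19 log2 units, with Slc38a7 at 0.04 in place of -0.20. No paired analysis was possible because all libraries belong to 1 group with replicate numbers 1 to 6, which sets B and A do not share. Depth limits carriers near background, where counts per library were often under 10. Mean levels moved with the total and the length used. Slc38a5 had 37.8 TPM, 65.0 when scaled over protein-coding genes alone and 14.7 by gene span. For Slc7a8 the 3 values were 15.6, 27.1 and 2.03 TPM, and for Slc38a2 they were 5.32, 9.75 and 5.66 TPM.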
